A study of Rattus norvegicus with 3 samples.

Results

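Genes of cholesterol and fatty acid synthesis were described in adult Sprague-Dawley rats from 3 libraries of poly(A) RNA. The members were 34 gene symbols chosen for their role in these pathways, and 29 of them had rows among the 16629 symbols and unnamed regions of the expression table. The groups were pineal gland by night (zeitgeber time 19, counted in hours from lights on), pineal gland by day (zeitgeber time 7) and a mixed pool in which 15 tissues other than the pineal gave equal RNA (zeitgeber time 7), and the light phase lasted 14 h and the dark phase 10 h for all rats. The pool held brain regions (cerebellum, cortex, hindbrain, hypothalamus and midbrain), pituitary, retina and spinal cord, and the adrenal gland, kidney, lung, liver, heart, small intestine and skeletal muscle. Each group had 1 library, so no test across animals was possible, no p-value is given, and every difference below lacks a replicate check. How many rats went into each library is not stated in the labels.

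Levels are in FPKM, a fragment count scaled to transcript length and library size. Calls use log2 ratios of FPKM + 1, a gene enters a comparison where either library has 1 FPKM or more, and a gene is called past 2-fold where that ratio reaches 1 in size. Folds in the text are ratios of FPKM itself. Where a range follows a fold, it is the 95% counting interval (Clopper-Pearson) of a transcript of assumed length 1 kb at the estimated depth, and it covers counting error only. At 10 FPKM such a transcript has Poisson bounds of 7.49 to 13.1 FPKM by night, 8.02 to 12.3 by day and 8.11 to 12.2 in the mixed tissues. Pinealocyte markers stood at 337 to 4245 FPKM by night and 5.34 to 4665 by day, against 0.134 to 273 in the mixed tissues, so the gland's libraries carried the genes of their label. All 8 were at least 4-fold above the pool both by night and by day.

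Cells make cholesterol from acetyl-CoA through mevalonate, the isoprenoid farnesyl diphosphate and squalene, and a chain of sterol intermediates leads from lanosterol to cholesterol. Fatty acids start from the same acetyl-CoA, which ATP citrate lyase makes from citrate, and elongases and desaturases then shape their chains. Both pathways answer to the SREBP transcription factors, membrane-bound proteins that Scap escorts from the endoplasmic reticulum when sterols are low and that Insig proteins hold back when sterols are high. In the brain, cholesterol is made locally, much of it for myelin, and the liver and the steroid-producing adrenal cortex are further sites of high use.

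The gland carried most of these transcripts at lower levels than the pool of other tissues. By night 19 of 29 members were at least 2-fold below the mixed tissues and 3 at least 2-fold above, and by day 21 were below and 3 above. Over all genes, 31.2% were at least 2-fold lower and 8.99% at least 2-fold higher by night (11951 genes compared), and 28.9% lower and 8.32% higher by day (11934 genes compared). The members' median log2 ratio was -1.62 by night and -1.66 by day, against -0.36 and -0.27 over all genes. At 4-fold, 11 members were lower by night and 11 by day, beside 14.4% and 13.2% of all genes. The comparisons by night and by day share the mixed-tissue library, so they are not independent of each other. With libraries centred on the median of all genes, 17 members were lower and 3 higher by night, and 19 lower and 3 higher by day, beside 2800 lower and 1683 higher of all genes by night and 2763 lower and 1432 higher by day.

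The 3 members above the pool at both times were Acly, Pmvk and Tm7sf2, which encode an enzyme of acetyl-CoA supply, a mevalonate pathway kinase and a sterol reductase. All others but Scap were at or below the mixed-tissue level: Scap, the SREBP escort, had 17.9 FPKM by night and 18.8 by day in the gland, against 16.6 in the mixed tissues.

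**Figure D1:**
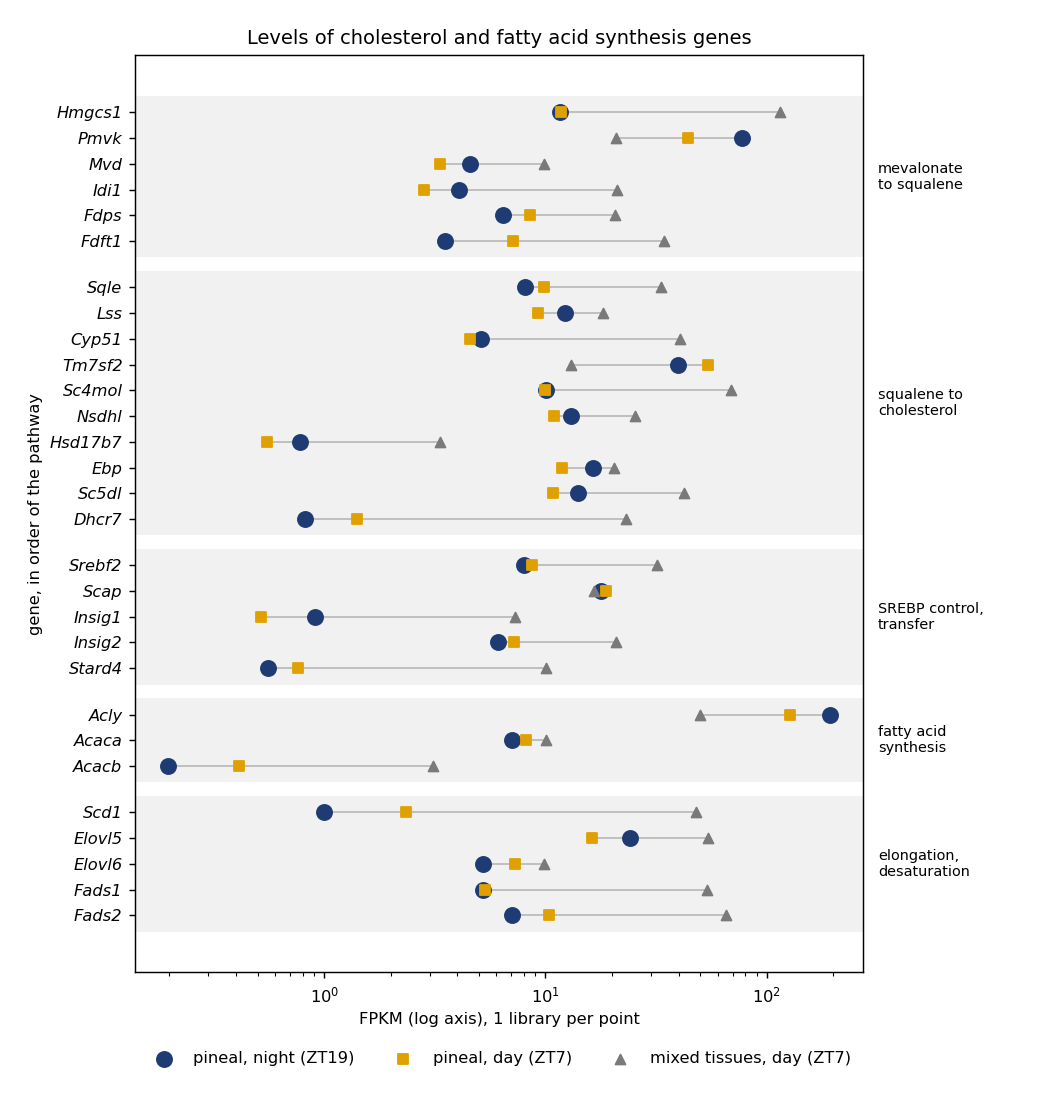
FPKM of the 29 members on a log axis, in the order of the pathway from top to bottom; circles are pineal gland by night, squares pineal gland by day and triangles mixed tissues, 1 library each. Triangles lie to the right for most genes, with the widest gap at Scd1 (0.9996 by night and 2.34 by day, against 47.7), and to the left for Pmvk, Tm7sf2 and Acly.

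At the entrance of the mevalonate pathway, Hmgcs1, which joins acetyl groups into HMG-CoA, had 11.6 FPKM by night and 11.8 by day in the gland, against 114 in the mixed tissues (chr2:51737090-51754583, rn4). That is 9.87-fold lower by night (range 7.63 to 13.0) and 9.69-fold lower by day (range 7.92 to 12.0). Both gland libraries were alike and the pool stood far apart from them.

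Pmvk, the kinase that adds the further phosphate to phosphomevalonate, went the other way (chr2:181655658-181665214). It was listed at 77.3 FPKM by night and 43.8 by day in the gland, against 20.9 in the mixed tissues, which is 3.71-fold higher by night (range 3.13 to 4.41) and 2.10-fold higher by day (range 1.77 to 2.50). Pmvk was the highest sterol pathway gene of the night library.

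The next steps were again low. Mvd, the decarboxylase that yields isopentenyl diphosphate, had 4.55 FPKM by night and 3.33 by day, against 9.88 in the mixed tissues. Idi1, its isomerase, was at 4.05 and 2.84 FPKM, against 21.0 in the mixed tissues, 7.40-fold lower by day (range 4.87 to 11.7). Fdps, which builds farnesyl diphosphate, was at 6.46 by night and 8.49 by day, against 20.6 in the pool. The reference annotation lists 5 named copies of Fdps and 1 each of Idi1 and Nsdhl, and the sources used here do not say how reads were divided among copies, so these levels are uncertain.

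Fdft1, squalene synthase, the first step committed to sterols, had 3.52 FPKM by night and 7.11 by day, against 34.3 in the mixed tissues (chr15:42425336-42453390). It was 9.75-fold below the pool by night (range 6.12 to 16.5) and 4.83-fold by day (range 3.68 to 6.42). The night value was the lowest of the 3.

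Between squalene and cholesterol, 6 of 10 genes were at least 2-fold below the pool by night and 7 by day. Cyp51, the lanosterol demethylase, had 5.09 FPKM by night and 4.58 by day, against 40.3 in the mixed tissues, 8.80-fold lower by day (range 6.36 to 12.5). Sc4mol, the methyl sterol oxidase now named Msmo1, was at 10.0 by night and 9.93 by day, against 68.7 in the pool, 6.92-fold lower by day (range 5.53 to 8.75). Dhcr7, the reductase of the last sterol ring step, had 0.820 FPKM by night and 1.41 by day, against 23.1, and thus 28.2-fold lower by night (range 11.3 to 97.8) and 16.4-fold by day (range 9.30 to 31.8). These were the steps furthest below the pool in this stretch.

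Tm7sf2, the sterol C14 reductase that acts directly after Cyp51, was the exception (chr1:208700770-208705093). It had 39.7 FPKM by night and 54.0 by day in the gland, against 13.1 in the mixed tissues. The gland was 3.04-fold higher by night (range 2.43 to 3.82) and 4.14-fold higher by day (range 3.40 to 5.07). So Tm7sf2 stood above the pool while the genes directly before and after it, Cyp51 and Sc4mol, stood well below.

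The other genes of this stretch lay closer to the pool. Sqle, squalene epoxidase, had 8.07 FPKM by night and 9.84 by day, against 33.3 in the mixed tissues, and Sc5dl, the lathosterol desaturase, at 14.1 and 10.8, against 42.1. Nsdhl, a sterol dehydrogenase of demethylation, was at 13.0 by night and 10.9 by day, against 25.3. Lss, which closes the lanosterol rings, was at 12.2 and 9.27, against 18.1, and Ebp, the sterol isomerase, at 16.3 and 11.8, against 20.5. On the log2 scale of FPKM + 1, Lss and Ebp were within 2-fold of the pool at both times, and Nsdhl and Mvd by night only. In FPKM itself, Mvd was 2.17-fold below the pool by night. Hsd17b7, the keto reductase of this chain, had 0.779 FPKM by night and 0.550 by day, against 3.33, close to the floor of 3 fragments on 1 kb (0.567 by night, 0.339 by day and 0.308 in the pool).

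Summed over the 16 genes from Hmgcs1 to Dhcr7, the gland held 228 FPKM by night and 201 by day, against 509 in the mixed tissues. Pmvk and Tm7sf2, singled out after their values were seen, made up 51.4% of that sum by night and 48.8% by day, but 6.66% in the pool. The other 14 genes summed to 111 FPKM by night and 103 by day, against 475 in the mixed tissues. Levels of the 29 members kept nearly the same order in the night and day libraries (Spearman's rho 0.98, a description over 29 genes), and a looser one between the gland by day and the pool (0.40).

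Genes of SREBP control were mostly low as well. Srebf2, the factor that drives sterol genes, had 7.97 FPKM by night and 8.65 by day, against 32.1 in the mixed tissues, 4.02-fold lower by night (range 2.91 to 5.69) and 3.71-fold lower by day (range 2.88 to 4.83). Insig1, an SREBP retention protein that is itself an SREBP target, was at 0.909 by night and 0.517 by day, against 7.31. Insig2, of the same protein family, was at 6.11 and 7.19, against 20.9. Stard4, a carrier of cholesterol between membranes, had 0.559 FPKM by night and 0.763 by day, against 10.1, and thus 13.2-fold lower by day (range 6.11 to 34.5). Scap alone of these 5 was within 2-fold of the pool.

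**Figure D2:**
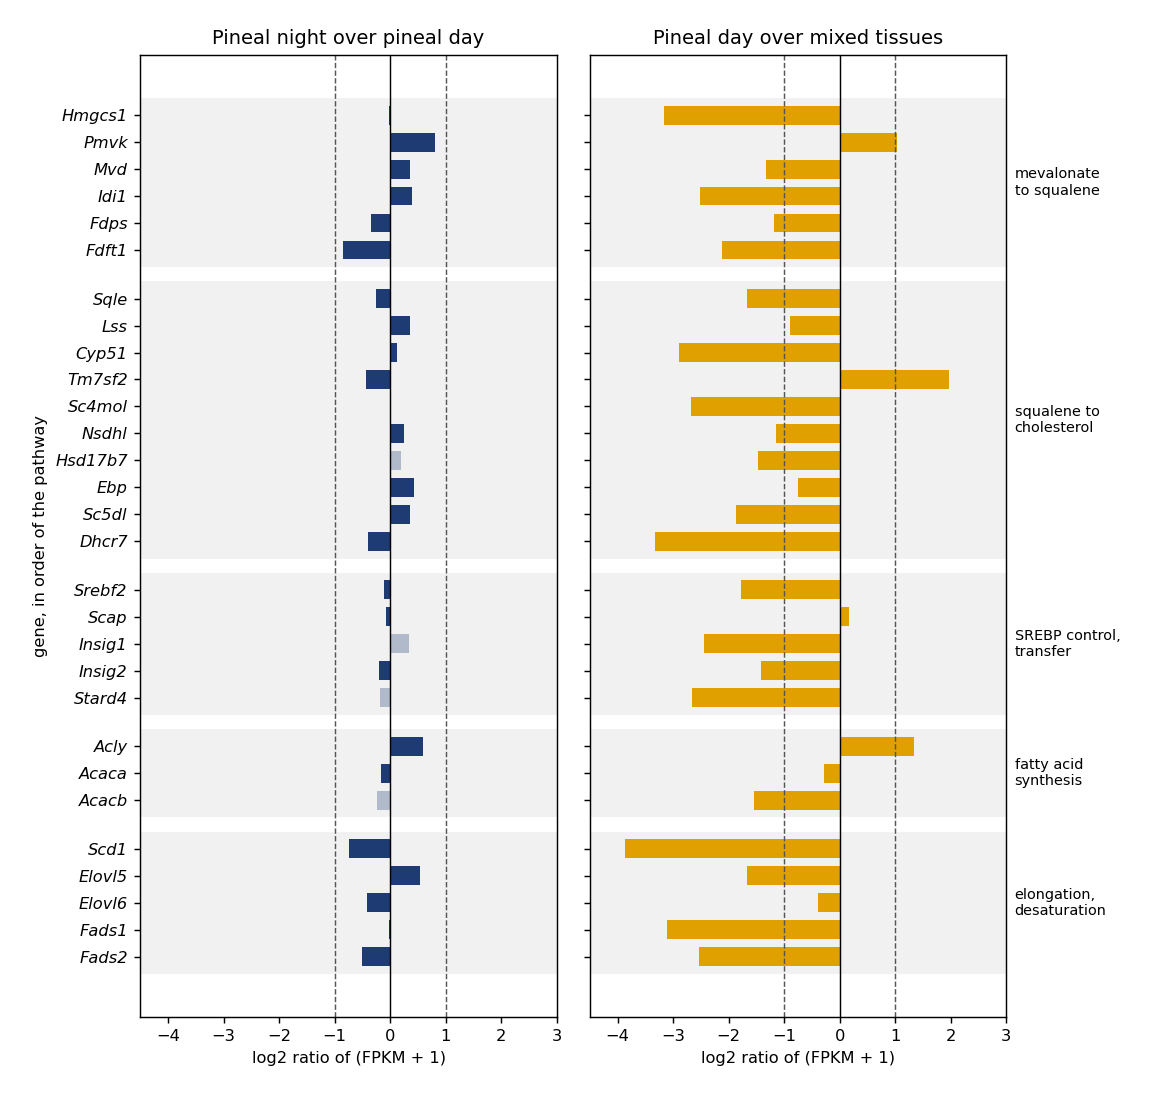
log2 ratios of FPKM + 1 for each member, with pineal night over day on the left and pineal day over mixed tissues on the right; dashed lines mark 2-fold, and pale bars are genes under FPKM 1 in both libraries compared. On the left no bar reaches a dashed line, and on the right 21 bars pass the lower line and 3 the upper.

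Among the genes that supply and build fatty acids, Acly, ATP citrate lyase, was the most abundant member in the gland (chr10:89420934-89471398). It was listed at 193 FPKM by night and 128 by day, against 49.7 in the mixed tissues, 3.89-fold higher by night (range 3.49 to 4.34) and 2.57-fold higher by day (range 2.31 to 2.87). Among all 16629 symbols its level ranked at percentile 99.2 by night and 98.8 by day, against 94.9 in the pool. Acaca, the acetyl-CoA carboxylase of lipid synthesis, was at 7.09 by night and 8.13 by day, against 10.0, within 2-fold at both times. Acacb, the carboxylase linked to mitochondria, was under 1 FPKM in the gland (0.198 by night and 0.413 by day), against 3.11.

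The value of Acly is a sum of 2 RefSeq entries with the same span, and they differed between libraries. Entry NM_016987 had 178 FPKM by night and 106 by day, against 30.8 in the mixed tissues, a share of the gene of 91.9%, 83.2% and 61.9%. Entry NM_001111095 had 15.6 FPKM by night and 21.4 by day, against 18.9 in the pool. The excess of the gland over the pool thus sat in the NM_016987 entry, while the other entry lay within 2-fold in all comparisons. The division of fragments between overlapping entries is an estimate of the authors' software, and no error of it was used here.

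**Figure D3:**
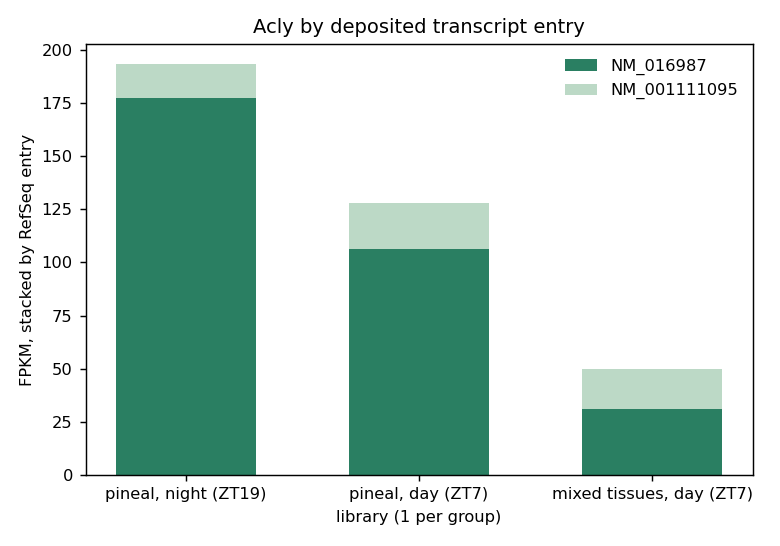
FPKM of Acly stacked by deposited RefSeq entry in pineal gland by night, pineal gland by day and mixed tissues, 1 library each. The dark part, NM_016987, falls in height across the 3 bars (178, 106 and 30.8), and the pale part, NM_001111095, stays between 15.6 and 21.4.

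Desaturases and elongases were the group furthest below the pool, with a median log2 ratio of -3.04 by night and -2.54 by day over 5 genes. Scd1, a stearoyl-CoA desaturase that introduces the first double bond, had 0.9996 FPKM by night and 2.34 by day, against 47.7 in the mixed tissues (chr1:249458860-249471460). It was 47.7-fold lower by night (range 20.8 to 142) and 20.4-fold lower by day (range 13.1 to 33.3), the lowest ratio of all members at both times. Fads1 and Fads2, the desaturases of polyunsaturated fatty acids, are neighbours on chromosome 1. Fads1 was at 5.22 by night and 5.32 by day, against 53.7, and Fads2 at 7.05 and 10.4, against 65.4. Elovl5, an elongase of polyunsaturated chains, had 24.0 FPKM by night and 16.3 by day, against 54.2, and Elovl6, an elongase of saturated chains, at 5.22 and 7.27, against 9.85. Elovl6 was the one of these 5 within 2-fold of the pool.

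Mvk, Acat2, Srebf1, Fasn and Scd2 had no row under these symbols and were not analysed here. The names Scd2 and Acat2 stand as aliases of 2 other rows. Scd, with the alias Scd2, had 61.7 FPKM by night and 90.7 by day, against 455 in the mixed tissues, so the gland's stearoyl-CoA desaturase signal lay mostly in this row and was 7.37-fold below the pool by night and 5.01-fold by day. Acat3, with the alias Acat2, was at 1.41 by night and 1.24 by day, against 8.35. Neither is counted among the 29.

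The RefSeq table of promoters (build GRCr8, 250 bases before to 50 after each gene's start) held 23 of the 29 members. Of these, 18 (78.3%) contained the letters CCAAT on either strand, against 37.5% of all 33469 promoters and 37.3% of those of genes with FPKM of at least 1 in any library. CCAAT is the letter core bound by NF-Y, a general factor known to work beside SREBP at sterol gene promoters. By role, CCAAT stood in 11 of 13 promoters of the sterol steps, 3 of 4 of SREBP control, 2 of 2 of fatty acid synthesis and 2 of 4 of elongation and desaturation. In 10 promoters it occurred more than once, and 25 of the 33 matches lay between 150 and 30 bases before the start. A sterol regulatory element of the form TCACNCCAC was found in 0 of 23 promoters, against 1.12% of all, which says only that these letters are not in these windows. The E-box CACGTG was found in 4, those of Insig1, Sc5dl, Elovl5 and Scap (17.4%, against 6.42% of all promoters and 8.87% of those of genes with FPKM of at least 1), and the cAMP element TGACGTCA in 1, that of Elovl5 (4.35%, against 1.83% of all and 3.02% of those of genes with FPKM of at least 1). No match overlapped one of another motif. These counts describe letters and are not binding.

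The promoters chosen are those of the 2 members above the pool that the table held, Acly (chr10:85963582-85963881, minus strand) and Tm7sf2 (chr1:212789492-212789791, minus strand), and of 4 below it, picked after their values were seen, Hmgcs1 (chr2:53382054-53382353, plus strand), Sc4mol (chr16:29746863-29747162, plus strand), Insig1 (chr4:8057720-8058019, minus strand) and Scd1 (chr1:253231682-253231981, minus strand), all from RefSeq on GRCr8. Each runs 5′ to 3′ along its gene, and capitals mark CCAAT, its reverse complement ATTGG and the E-box.
Acly: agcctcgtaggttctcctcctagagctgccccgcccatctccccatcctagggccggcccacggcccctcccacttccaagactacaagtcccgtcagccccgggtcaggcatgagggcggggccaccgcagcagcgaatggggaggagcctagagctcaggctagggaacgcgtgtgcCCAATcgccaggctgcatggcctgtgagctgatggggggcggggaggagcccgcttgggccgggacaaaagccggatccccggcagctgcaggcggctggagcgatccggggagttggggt
Tm7sf2: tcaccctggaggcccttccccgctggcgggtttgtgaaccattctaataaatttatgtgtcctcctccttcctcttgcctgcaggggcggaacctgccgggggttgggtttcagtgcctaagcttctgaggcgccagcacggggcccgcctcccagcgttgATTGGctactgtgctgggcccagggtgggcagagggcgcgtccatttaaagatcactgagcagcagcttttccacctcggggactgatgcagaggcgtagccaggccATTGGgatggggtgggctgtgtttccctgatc
Hmgcs1: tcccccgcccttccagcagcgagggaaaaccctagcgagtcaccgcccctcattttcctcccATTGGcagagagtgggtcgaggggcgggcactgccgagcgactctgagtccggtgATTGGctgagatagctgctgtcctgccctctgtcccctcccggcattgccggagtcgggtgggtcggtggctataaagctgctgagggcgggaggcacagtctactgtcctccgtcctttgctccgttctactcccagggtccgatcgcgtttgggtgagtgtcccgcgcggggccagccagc
Sc4mol: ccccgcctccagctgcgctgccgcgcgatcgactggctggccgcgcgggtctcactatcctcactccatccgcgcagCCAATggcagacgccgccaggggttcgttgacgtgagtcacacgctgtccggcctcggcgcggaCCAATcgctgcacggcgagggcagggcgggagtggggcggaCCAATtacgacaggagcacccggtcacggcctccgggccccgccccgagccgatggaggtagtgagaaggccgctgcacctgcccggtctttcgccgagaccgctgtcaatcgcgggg
Insig1: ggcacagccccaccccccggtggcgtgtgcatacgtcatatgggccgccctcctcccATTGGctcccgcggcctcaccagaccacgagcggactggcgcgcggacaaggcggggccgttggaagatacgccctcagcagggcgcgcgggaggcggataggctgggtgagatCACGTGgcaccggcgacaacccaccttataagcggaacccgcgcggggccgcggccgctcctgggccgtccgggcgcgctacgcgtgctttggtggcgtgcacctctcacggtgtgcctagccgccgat
Scd1: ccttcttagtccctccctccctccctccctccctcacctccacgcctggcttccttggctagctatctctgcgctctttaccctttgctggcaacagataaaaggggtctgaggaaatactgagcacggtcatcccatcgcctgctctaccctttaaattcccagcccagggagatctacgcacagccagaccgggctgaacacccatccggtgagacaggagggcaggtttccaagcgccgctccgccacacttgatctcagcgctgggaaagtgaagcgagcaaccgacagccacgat
Sc4mol had 3 matches to CCAAT, Hmgcs1 and Tm7sf2 had 2 each, Acly and Insig1 had 1 each, and Scd1 had 0. The 5 members without CCAAT were Cyp51, Dhcr7, Fads2, Scap and Scd1. Of these, Scap was within 2-fold of the pool and the other 4 were below it by more than 2 on the log2 scale by night and by day. Of the 18 members with CCAAT, Hmgcs1, Idi1, Sc4mol, Insig1 and Fads1 were below the pool by as much at both times, and the rest were not. Over all genes, 14.4% were at least 4-fold lower by night and 13.2% by day. A link between these letters and the levels was not tested.

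Cell types of the pooled organs stood beside the contrast with the mixed tissues. The 7 oligodendrocyte markers, cells whose myelin is rich in cholesterol, summed to 16.1 FPKM by night and 30.2 by day, against 4807 in the mixed tissues. Single markers ranged from 0 to 7.93 by night and 0.0635 to 18.2 by day, against 70.9 to 2720, and Mobp was listed at 0 by night. The 7 adrenal cortex markers summed to 0.725 by night and 0.909 by day, against 560, with 4 and 3 of them listed at 0 in the gland. Of 7 hepatocyte markers, Alb, Fga, Fgb and Tat were listed at 0 in both gland libraries, against 9.29 to 2030 FPKM in the mixed tissues (named for these zeros after the values were seen), while Ttr, which is not limited to liver, was at 607 by night and 516 by day, against 685. Of 5 astrocyte markers, 4 were at least 4-fold below the pool at both times. The part of these cell types in the lower levels of synthesis genes was not tested, and in such bulk libraries fewer cells of a type and less RNA per cell cannot be told apart.

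Between night and day, 9208 of the 9826 genes compared in the gland lay within 2-fold, and the synthesis genes did too. With FPKM of at least 1 in either gland library, 25 of the 29 could be compared. Of these, 0 were at least 2-fold higher and 0 at least 2-fold lower, beside 4.18% and 2.11% of all genes compared. For 25 genes these counts are near the shares of all genes, so they set the members apart from other genes in neither direction. The members' log2 ratios ran from -0.84 to 0.81 with a median of -0.02, against -0.11 over all genes, and 11 were above 0 and 14 below. Centring the libraries on the median of all genes turned the members' median to 0.09. Hsd17b7, Insig1, Stard4 and Acacb were under 1 FPKM at both times and were not compared.

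On the log2 scale of FPKM + 1, which shrinks the ratios of low genes, Pmvk, Acly and Elovl5 had the highest night over day ratios. Pmvk, with 77.3 FPKM by night against 43.8 by day, was 1.76-fold higher by night (range 1.53 to 2.03, log2 0.81). Acly, at 193 and 128, was 1.51-fold higher (range 1.39 to 1.65, log2 0.59), and its NM_016987 entry 1.67-fold higher. Elovl5 was 1.47-fold higher (range 1.15 to 1.88, log2 0.53). Idi1, at 4.05 and 2.84, was 1.43-fold higher in FPKM (range 0.763 to 2.64). Ebp, at 16.3 and 11.8, was 1.38-fold higher (range 1.03 to 1.85). In Pmvk, Acly, Elovl5 and Ebp the counting interval lies above 1, but the spread between animals is unknown.

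On the lower side, Fdft1, at 3.52 FPKM by night and 7.11 by day, had the lowest ratio (log2 -0.84). In FPKM without a pseudocount it was 2.02-fold lower by night (range 1.19 to 3.59), and Scd1, at 0.9996 and 2.34, was 2.34-fold lower (range 0.876 to 7.68), so 2 of 25 members passed 2-fold on that scale, beside 5.83% of all genes that were lower by as much. Fads2, at 7.05 by night and 10.4 by day, followed Fdft1 and Scd1 with a log2 ratio of -0.50, then Tm7sf2 (-0.44, 1.36-fold lower with a range of 1.16 to 1.61), Elovl6 (-0.41) and Dhcr7 (-0.41). The ratio of Hmgcs1 was -0.02, that of Sc4mol 0.01 and that of Fads1 -0.02. Sterol steps had a median log2 ratio of 0.12 over 15 genes, and fatty acid genes -0.17 over 7.

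**Figure D4:**
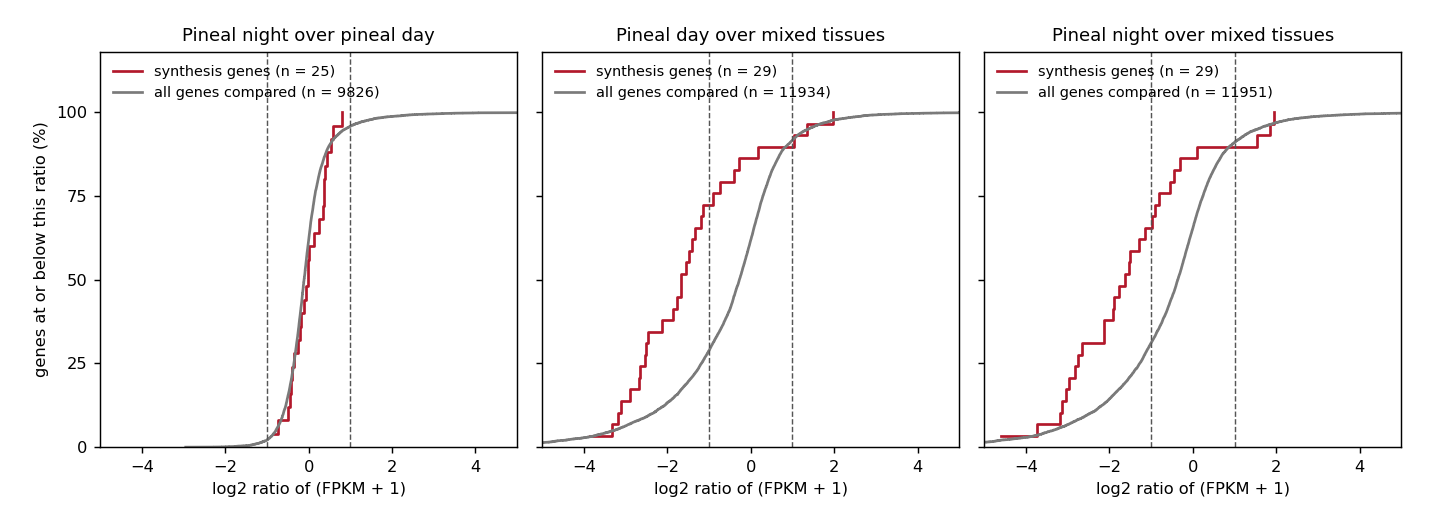
Cumulative share of genes (%) by log2 ratio of FPKM + 1 for the synthesis genes and all genes compared, in pineal night over day, pineal day over mixed tissues and pineal night over mixed tissues; dashed lines mark 2-fold. In the left panel the 2 curves lie close together and that of the synthesis genes stays within the dashed lines, and in the other 2 the synthesis genes lie to the left, with medians of -1.66 and -1.62 against -0.27 and -0.36.

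Genes around the pathway came from lists written with earlier results of these data known. Of 25 other sterol genes found (mainly of uptake, export, storage and oxysterols), 24 could be compared between night and day, with 1 at least 2-fold higher, 0 lower and a median of -0.17. The one was Abca1, the exporter of cellular cholesterol, at 50.8 FPKM by night and 10.2 by day in the gland, 5.001-fold higher (range 3.92 to 6.42), against 4.43 in the mixed tissues. Against the pool, 9 of these 25 were at least 2-fold lower and 2 at least 2-fold higher both by night and by day. Those shares are near the background of all genes (31.2% lower and 8.99% higher by night, 28.9% lower and 8.32% higher by day).

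The isoprenoid branch, which leaves the mevalonate pathway before sterols to make dolichol, ubiquinone and protein prenyl groups, held 9 genes of the lists. Of these, 0 were at least 2-fold below the pool by night or by day, 0 exceeded it by 2-fold or more by night and 2 did so by day, beside 31.2% of all genes lower and 8.99% higher by night and 28.9% lower and 8.32% higher by day. The median log2 ratio was 0.20 by night and 0.36 by day. Fntb, a farnesyltransferase subunit, had 16.8 FPKM by night and 25.1 by day, against 8.21 in the mixed tissues. Pdss2, of ubiquinone side chain synthesis, was at 11.4 and 18.4, against 6.64. In FPKM itself, Fntb by night was 2.04-fold above the pool, and Ggps1, named after its values were seen, 2.01-fold. The difference between the lists was not tested.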

How the data were processed

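Poly(A) RNA was sequenced from 3 libraries, 1 per group, as paired-end reads of 51 bases after 15 PCR cycles, per the labels' protocols. FPKM values were made by the authors and are named as such in the file headers. TopHat 1.3.1, Cufflinks 1.2.0 and the build rn4 are named per the submitters' processing notes, with no options stated there. FPKM is scaled to each library's total, so abundant transcripts lower the rest.

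From the deposited FPKM, rows of 1 symbol were summed (17089 entries, 16629 symbols or unnamed regions). The series table and the tables per sample held identical values in 51267 of 51267 cases. Starts were moved to count from 1. Ratios are log2 of FPKM + 1 with a filter at FPKM 1. Only the ratios and the counts past 2-fold were tested on simulated data, with larger set folds and no added noise. The depth estimate, the counting intervals and the motif search were not tested in this way. Fragments per kb were estimated from 1378 short receptor gene models, most listed at 0. FPKM was multiplied by length in kb, and values above 0 were kept up to 1.6 times the lowest. Their median was taken as 1 fragment: 5.29 per FPKM by night (6 models), 8.84 by day (28 models) and 9.74 in the pool (28 models). The night depth is therefore about 59.9% of the day's and rests on few models. Intervals cover counting error only.

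The members and the 21 lists were chosen with earlier results of these data known. Named genes were all members and, from each other list, genes at least 2-fold apart between night and day with FPKM of at least 5, or else the 2 with the largest ratios of night over day and of day over mixed tissues. Marker genes named are up to 2 of the highest per list, and others are said to be chosen after their values were seen. Other settings tried were pseudocounts of 0.1 and 5, a filter at FPKM 5 and none, the highest entry per symbol, median centring and a 4-fold threshold. Python 3.11.15, pandas 2.3.3 and scipy 1.17.1 were used. Some items are not reported here.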

Additional observations from a re-analysis of the deposited data

How the results depend on the processing

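No paired analysis was possible because each group has 1 library. The count of members past 2-fold and their median log2 ratio were recomputed in 3 comparisons. Night over day, 0 of 25 members were past 2-fold, and 1 (Scd1, lower) with a pseudocount of 0.1. At a 4-fold threshold 11 members were past it against the mixed tissues by night, where 22 were past 2-fold, and 11 by day, where 24 were. With a pseudocount of 5 the counts were 20 by night and 18 by day, and with centred libraries 20 and 22. The median against the pool ran from -1.96 to -1.16 by night and -1.88 to -1.16 by day. Centring on the median of all genes shifts ratios by 0.36 by night and 0.27 by day against the pool, and by 0.11 for night over day. Of 490 recomputed ratios of single members, 25 moved beyond their counting interval and 0 of those past 2-fold changed sign. With 1 library per group the spread between animals is unknown, and under about 1 FPKM a 1 kb transcript rests on fewer than 10 fragments.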

Other observations

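A few lipid genes outside these synthesis steps differed more between night and day in the gland, on the log2 scale of FPKM + 1, than any member did. Dgat2, which makes triglycerides from diglycerides, had 23.0 FPKM by night and 4.001 by day, 5.76-fold higher by night (range 3.93 to 8.62). Cpt1a, which loads fatty acids for entry into mitochondria, was at 10.2 by night and 34.6 by day, 3.39-fold lower (range 2.53 to 4.61). Slc25a20, the carrier that moves the loaded fatty acids inward, was at 19.2 by night and 45.4 by day, 2.36-fold lower (range 1.90 to 2.97). Acsl1, which activates long fatty acids with coenzyme A, was at 48.5 by night and 102 by day, 2.10-fold lower (range 1.83 to 2.42).

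Of 18 fatty acid oxidation genes compared, 15 had ratios below 0, 2 were at least 2-fold lower and 0 higher, with a median log2 ratio of -0.39, against -0.11 over all genes, of which 61.8% were below 0. The 19 glycerolipid synthesis genes had 1 member at least 2-fold higher (Dgat2), 1 lower (Pemt, listed at 0 by night and at 1.55 FPKM by day) and a median of 0.10. The 20 genes of fatty acid supply had 0 higher, 1 lower (Acsl1) and a median of -0.19. Marker lists of cell types differed in sign between night and day. The median log2 ratio was -0.43 over 5 astrocyte markers, -0.41 over 5 fibroblast and meningeal markers, -0.31 over 4 endothelial markers and -0.30 over 7 microglial markers, with 0 past 2-fold in each. It was 0.31 over 3 neuron markers, also with 0 past 2-fold, and 0.76 over the 8 pinealocyte markers, with 1 at least 2-fold higher. That 1 was Aanat, named after its values were seen, with 762 FPKM by night and 5.34 by day. Of the 8 pinealocyte markers, 6 were above 0 and 2 below, so their median may not report pinealocytes. The neuron list was divided, so its median may not report neurons. Slc17a7 had 499 FPKM by night and 582 by day, against 90.7 in the mixed tissues. Nefl (0.144 and 0.0688, against 154) and Gad1 (0.0443 and 0.115, against 37.9), named after their values were seen, were too low in the gland to compare. Of 3 oligodendrocyte markers compared (median -0.60) 1 was at least 2-fold lower (Cnp, with 7.93 FPKM by night against 18.2 by day). The 2 hepatocyte markers compared went opposite ways. Ttr, which is not limited to liver, was at 0.23, and Serpina1 at -1.07 with 2.52 FPKM by night and 6.41 by day. The 1 adipocyte marker compared was at -1.03 and the 1 muscle marker at -0.10. The part of these cells in the ratios of the oxidation genes was not tested.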
